A study of Mus musculus with 24 samples.

Results

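The 44 genes described here are classically imprinted genes of the mouse, chosen by symbol and grouped into 20 imprinted loci. The rule of choice used no measured value, but earlier results of these data were known when it was made. All 44 had a row among the 23284 gene symbols of the count table, and 42 passed the filter on low counts, as did 15220 genes in all. Airn and Rasgrf1 did not pass and were not tested. Poly(A) RNA was sequenced from C57BL/6 embryonic stem cells and the embryoid bodies grown from them, aggregates that form once cells are allowed to differentiate. The cells carried an Eed gene that 800 nM 4-hydroxytamoxifen deletes. The groups were KO+N-KR (treated, with EED of the form labelled N-KR put back; the labels do not spell out this name), KO+WT (treated, with wild-type EED put back), KO (treated, nothing put back) and f/f (the conditional allele, not treated). Samples of each line were taken under the label 3i, at embryoid body day 1 and at embryoid body day 2. Cultures were kept in serum and LIF on mouse embryonic fibroblast feeders. The 2 libraries of each of the 12 groups differed by 1.096 to 1.178 times the variance of binomial sampling, compared with 2.808 to 15.52 times between genotypes of a state, and were counted as 1 sample. A line in 1 state therefore has no biological replicate, and tamoxifen and the history of each line cannot be told apart from its genotype in comparisons with f/f.

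An imprinted gene is expressed mainly from the copy inherited from one parent, because DNA methylation set in the egg or the sperm marks an imprinting control region of the locus. In embryonic stem cells these marks are held through replication by DNMT1 and UHRF1 and by zinc finger proteins such as ZFP57, which binds a methylated TGCCGC hexamer and recruits TRIM28. PRC2 methylates histone H3 and has EED among its core subunits, and in mouse embryos Eed is needed to keep some paternal copies of imprinted genes silent. The counts used here carry no information on the parental copy, so a level is the sum over both copies.

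To show the kind of sequence that carries such a mark, stretches next to 4 promoters of members are printed, chosen after their RNA levels were seen. They come from RefSeq promoter windows on GRCm38.p6, which is not the mm9 build of the authors' processing, and are written 5′ to 3′ on the plus strand in lower case, with TGCCGC or its reverse complement GCGGCA in capitals. The first is the stretch between the divergent starts of Peg3 and Usp29 (chr7:6730420-6730582), which holds 5 CpG and no such hexamer. The others are the 250 bases before a start of Mest (chr6:30737800-30738049, 14 CpG), Plagl1 (chr10:13090582-13090831, 19 CpG) and Mcts2 (chr2:152686898-152687147, 20 CpG). All of these genes are expressed from the paternal copy, and these promoters are methylated on the maternal one in mouse.
Peg3-Usp29: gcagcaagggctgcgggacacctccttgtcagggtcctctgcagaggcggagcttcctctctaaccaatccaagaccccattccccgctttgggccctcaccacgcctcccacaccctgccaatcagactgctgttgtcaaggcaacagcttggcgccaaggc
Mest: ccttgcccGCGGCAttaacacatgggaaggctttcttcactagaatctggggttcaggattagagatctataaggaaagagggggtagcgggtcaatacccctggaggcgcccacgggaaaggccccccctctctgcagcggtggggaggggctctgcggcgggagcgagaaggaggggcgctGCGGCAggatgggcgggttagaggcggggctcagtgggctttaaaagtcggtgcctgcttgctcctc
Plagl1: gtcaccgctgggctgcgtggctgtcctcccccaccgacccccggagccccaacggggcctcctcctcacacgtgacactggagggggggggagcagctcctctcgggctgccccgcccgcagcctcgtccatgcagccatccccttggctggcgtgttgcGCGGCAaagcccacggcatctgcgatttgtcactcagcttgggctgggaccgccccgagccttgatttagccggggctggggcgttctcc
Mcts2: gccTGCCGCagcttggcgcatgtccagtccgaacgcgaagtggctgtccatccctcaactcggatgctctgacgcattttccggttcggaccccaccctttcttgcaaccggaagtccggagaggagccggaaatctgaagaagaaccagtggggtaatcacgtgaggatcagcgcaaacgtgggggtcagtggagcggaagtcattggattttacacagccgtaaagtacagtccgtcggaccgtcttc
Of the 44 members, 35 had a promoter window and 9 are named only by symbol. TGCCGC on either strand occurred in the 250 bases upstream of a start for 7 members (Copg2, Mcts2, Meg3, Mest, Plagl1, Zdbf2 and Zim1), or 20% of the 35, against 9.84% of 27025 genes. A gene was counted if any of its windows matched, and the 35 members had 52 windows against 32851 for the 27025 genes. The median window held 11.5 CpG in members and 6 CpG over all windows, and the hexamer itself holds a CpG. The difference in share was not tested. A match is a description of the letters, and nothing here measured binding or methylation.

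Totals ran from 7553683 to 14426034 counts per library and from 18017598 to 25160294 per sample. Levels are CPM, which is a gene's count relative to its library's size, here with TMM scaling, and each comes from 1 sample. Fold changes are log2 values ± SE from edgeR's quasi-likelihood test over all 12 samples, with Benjamini-Hochberg adjustment over all genes tested and a threshold of 0.05. A difference between lines was thus measured over the 3 states, and a difference between states over the 4 lines. Such a p-value says how regularly a gap between single lines or states came back, not how independent lines would spread. Within a state, a gene is called by size, with no test, where its samples differ by 2-fold or more and the higher one has 5 CPM or more. Eed itself stood at 137, 175 and 102 CPM in KO against 174, 221 and 130.4 in f/f in the order 3i, day 1, day 2 (-0.35 ± 0.10, adjusted p = 0.0479). The labels do not give the deleted part, so this level does not check the deletion. The rescue lines had 168, 182.5 and 121.5 CPM in KO+N-KR and 387, 373.5 and 188 CPM in KO+WT. Summed levels of naive pluripotency markers ran from 2800 to 4005 CPM at 3i and from 698 to 1393 CPM in embryoid bodies, and those of formative epiblast markers from 133 to 173 CPM at 3i and from 952 to 2549 CPM in embryoid bodies. Of 16 feeder fibroblast, 12 extraembryonic endoderm and 9 trophoblast markers, at most 1, 0 and 2 were at 0 in any sample.

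The state comparisons ask how imprinted genes change as cells leave 3i and form embryoid bodies. At day 1, 31 of the 42 tested members were called (65.6% of all genes), 20 higher (32.4% of all genes) and 11 lower (33.2%). One of the 11, Kcnq1, rests on few reads. Under library totals alone, which moved the median of all genes to -0.106, 18 members were higher and 12 lower at day 1, beside 4007 genes higher and 6061 lower (4938 and 5046 with TMM scaling). At day 2, 36 were called (63.5% of all genes), 26 higher (33%) and 10 lower (30.5%). The called share of members is close to the background at day 1 and above it at day 2, while calls in the higher direction exceeded the background share on both days. The median log2 change of members was 0.38 at day 1 and 0.40 at day 2, beside -0.01 and 0.02 over all genes tested. Among paternally expressed members, 13 of 21 were higher and 3 lower at day 1, and 15 higher and 4 lower at day 2. Among maternally expressed members, 7 of 20 were higher and 7 lower at day 1, and 10 higher and 6 lower at day 2. These classes are assigned by gene, were not measured in these cells and may not hold in them for every member. The difference between the parental classes was not tested. In bulk RNA, fewer cells of a type and less RNA per cell cannot be told apart.

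**Figure D1:**
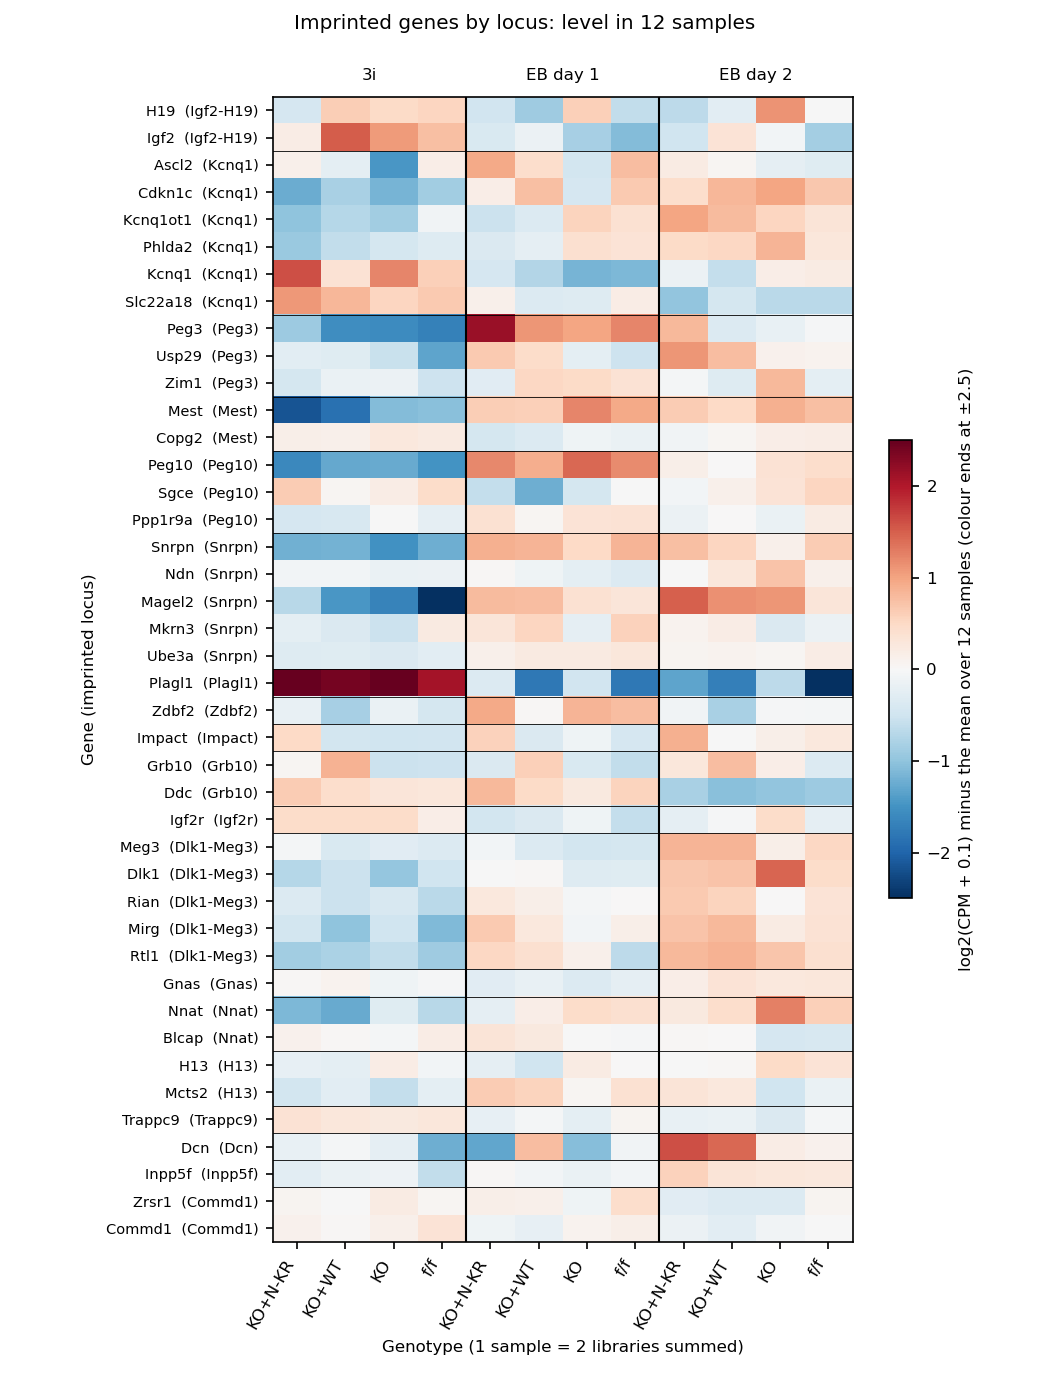
Level of the 42 tested imprinted genes in the 12 samples (columns: genotype within 3i, day 1 and day 2; rows: genes by locus), as log2 level minus the gene's mean over the samples. Peg3, Mest, Peg10, Magel2 and Snrpn are low at 3i and high in embryoid bodies in every genotype, and Plagl1 is the reverse.

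**Figure D2:**
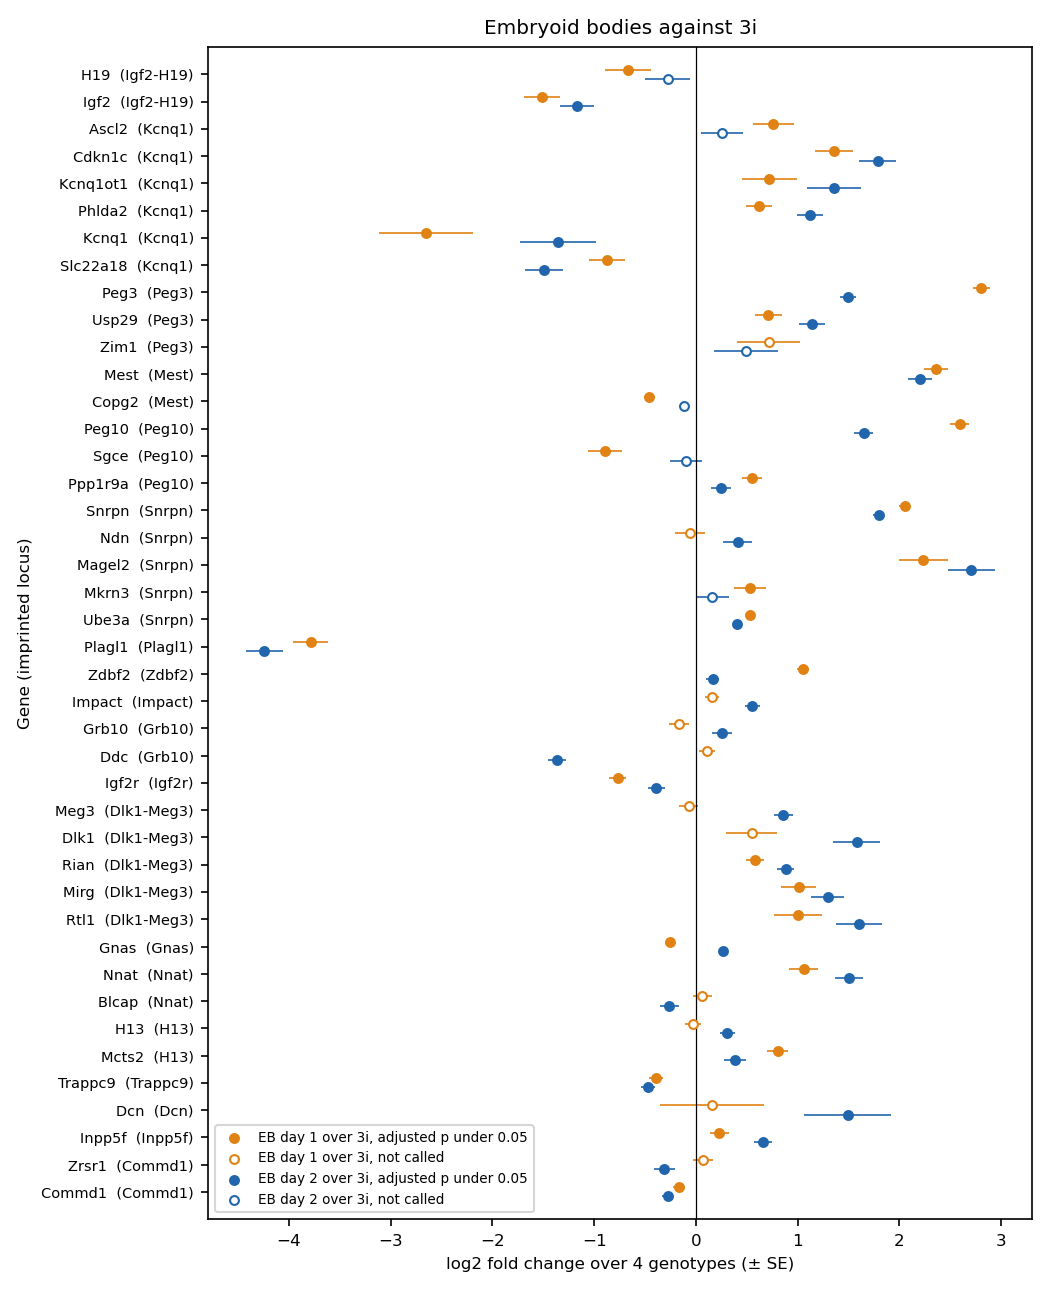
Log2 fold change ± SE of each tested imprinted gene at embryoid body day 1 and day 2 over 3i, across 4 genotypes; filled points have an adjusted p under 0.05. Plagl1 lies at -3.79 and -4.24, below every other gene, while Peg3, Peg10, Mest, Magel2 and Snrpn lie between 1.50 and 2.81.

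Within single lines the same 5 genes, Peg3, Mest, Peg10, Snrpn and Plagl1, differed at least 2-fold between day 1 and 3i in each of the 4 genotypes. By size, 10 of 33 members with 5 CPM or more were called at day 1 in KO+N-KR (14.9% of all such genes), 12 of 35 in KO+WT (13.6%), 8 of 33 in KO (10.6%) and 11 of 35 in f/f (11.8%). At day 2 the counts were 15 of 36 in KO+N-KR (15.2%), 16 of 35 in KO+WT (13.9%), 13 of 35 in KO (10%) and 12 of 34 in f/f (12%). Cdkn1c, Ddc and Nnat joined the 5 genes in every genotype at day 2. The counts by line lie above the background shares in every line, on 1 sample a side and with no test. The share of all genes that passed 2-fold in every line was not computed.

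At the Peg3 locus, Peg3 encodes a zinc finger protein transcribed from the paternal copy, and Usp29, of the ubiquitin-specific protease family, starts in the opposite direction from the stretch printed above. Peg3 stood at 113, 957 and 374 CPM in KO+N-KR, 72.3, 455 and 168.5 in KO+WT, 71.2, 424 and 186 in KO, and 66.3, 499 and 208.5 in f/f in the order 3i, day 1, day 2. It peaked at day 1 in every line and remained above 3i at day 2, with log2 changes of 2.81 ± 0.08, adjusted p = 2.49e-11, at day 1 and 1.50 ± 0.08, adjusted p = 4.01e-09, at day 2. Usp29 followed another course, with 6.15, 11.7 and 16.1 CPM in KO+N-KR, 6.035, 10.3 and 12.8 in KO+WT, 5.055, 6.29 and 8.08 in KO, and 2.91, 5.20 and 7.91 in f/f. Its highest level was at day 2 in every line, and its change over 3i was 0.71 ± 0.13, adjusted p = 3e-04, at day 1 and 1.14 ± 0.13, adjusted p = 4.23e-06, at day 2. Zim1, a maternally expressed zinc finger gene, had 167 reads in all 12 samples and ranged from 0.398 CPM (f/f at 3i) to 1.16 CPM (KO at day 2). It was the only tested member called in none of the 7 comparisons. With day 1 and 3i fitted alone, Zim1 did pass as higher at day 1 (log2 change 0.71, adjusted p = 0.0449 with edgeR).

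Mest is a paternally expressed gene of the hydrolase fold family. It stood at 17.7, 121 and 121.5 CPM in KO+N-KR, 21.5, 119 and 111.5 in KO+WT, 37.1, 183 and 145 in KO, and 38.0, 152 and 133 in f/f in the order 3i, day 1, day 2. It was higher at day 1 (2.36 ± 0.12, adjusted p = 2.77e-09) and at day 2 (2.20 ± 0.12, adjusted p = 4.36e-09), and no embryoid body sample reached down to the 3i range. Copg2, a coatomer subunit gene that overlaps the end of Mest on the other strand, moved the opposite way at day 1 (-0.46 ± 0.05, adjusted p = 3.81e-06) and ranged from 74.2 CPM (KO+N-KR at day 1) to 122 CPM (KO at 3i). The sources used here give no strand setting for the counting, so reads of Mest and Copg2 in their overlap cannot be told apart.

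Peg10 is a gene derived from a retrotransposon and needed for the mouse placenta. It stood at 73.5, 517 and 251 CPM in KO+N-KR, 92.8, 425.5 and 226 in KO+WT, 94.5, 612 and 289 in KO, and 80.0, 513 and 306 in f/f in the order 3i, day 1, day 2. Its log2 change was 2.59 ± 0.10 at day 1 and 1.65 ± 0.09 at day 2, with the day 1 level above the day 2 level in every line. Sgce, a sarcoglycan gene that starts beside Peg10 and is also paternally expressed, was lower at day 1 (-0.90 ± 0.17) and ranged from 2.83 CPM (KO+WT at day 1) to 10.45 CPM (KO+N-KR at 3i). Ppp1r9a, which encodes an actin-binding protein of neurons, was higher at day 1 (0.55 ± 0.10) and at day 2 (0.25 ± 0.10), and ranged from 29.8 CPM (KO+N-KR at 3i) to 52.2 CPM (KO+N-KR at day 1). Genes of 1 locus thus moved in both directions at day 1. The day 2 call of Ppp1r9a was lost without KO+N-KR, without KO+WT and without f/f. It was also lost under library totals alone, with the compared states fitted alone and without replicate 2.

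Snrpn is the gene of the splicing protein SmN. It stood at 77.2, 326 and 299 CPM in KO+N-KR, 78.1, 319.7 and 258 in KO+WT, 61.7, 249.6 and 193 in KO, and 75.5, 318 and 273 in f/f in the order 3i, day 1, day 2. All embryoid body samples lay above all 3i samples, with log2 changes of 2.05 ± 0.05 at day 1 and 1.80 ± 0.05 at day 2. Magel2, a MAGE family gene, was higher by 2.23 ± 0.24 and 2.71 ± 0.23, and ranged from 0.239 CPM (f/f at 3i) to 5.24 CPM (KO+N-KR at day 2). Ube3a, a ubiquitin ligase gene whose imprinting is known mainly from neurons, was higher on both days (0.53 ± 0.05 and 0.41 ± 0.05), and ranged from 69.5 CPM (KO at 3i) to 109 CPM (f/f at day 1). Mkrn3, a RING finger gene, was higher at day 1 only (0.53 ± 0.16), and Ndn, another MAGE family gene, at day 2 only (0.41 ± 0.14). Mkrn3 ranged from 2.72 CPM (KO at 3i) to 5.97 CPM (f/f at day 1), and Ndn from 6.17 CPM (f/f at day 1) to 13.0 CPM (KO at day 2). The Mkrn3 call was lost without KO+WT or without replicate 2, and the Ndn call without KO+WT or without KO.

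Plagl1, the gene of a zinc finger transcription factor that restrains growth, was lower in embryoid bodies than at 3i by the largest margin of any tested member. It stood at 160.4, 11.3 and 5.73 CPM in KO+N-KR, 76.35, 4.10 and 4.33 in KO+WT, 102, 10.2 and 9.15 in KO, and 61.4, 4.12 and 2.12 in f/f in the order 3i, day 1, day 2, so its lowest 3i value lay above its highest embryoid body value. The log2 change was -3.79 ± 0.18, adjusted p = 1.32e-09, at day 1 and -4.24 ± 0.18, adjusted p = 6.57e-10, at day 2. Igf2, the fetal growth factor gene, was also lower (-1.51 ± 0.17, adjusted p = 4.95e-06, at day 1; -1.17 ± 0.17, adjusted p = 4.21e-05, at day 2). Its levels were 14.0, 9.36 and 8.70 CPM in KO+N-KR, 35.2, 11.1 and 15.6 in KO+WT, 25.65, 6.81 and 11.6 in KO, and 20.8, 5.71 and 6.715 in f/f. H19, the maternally expressed noncoding RNA that shares a control region with Igf2, was lower at day 1 (-0.67 ± 0.23, adjusted p = 0.0194), a call lost without KO+WT or without f/f, and not called at day 2 (-0.28 ± 0.22, adjusted p = 0.289). H19 stood at 22.0, 21.15 and 18.6 CPM in KO+N-KR, 45.4, 15.9 and 24.4 in KO+WT, 41.1, 44.5 and 64.25 in KO, and 42.8, 19.1 and 29.2 in f/f. In KO it was highest at day 2, while the other lines were highest at 3i. Of 15 tested feeder markers, 11 fell and 2 rose at day 1, and 9 fell and 3 rose at day 2. The sum of all 16 was 487, 105 and 132 CPM in KO+N-KR, 802, 119.7 and 172 in KO+WT, 530.1, 94.3 and 107 in KO, and 559, 68.4 and 80.35 in f/f. The part of feeder RNA in the levels of Igf2 and H19 was not tested.

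**Figure D3:**
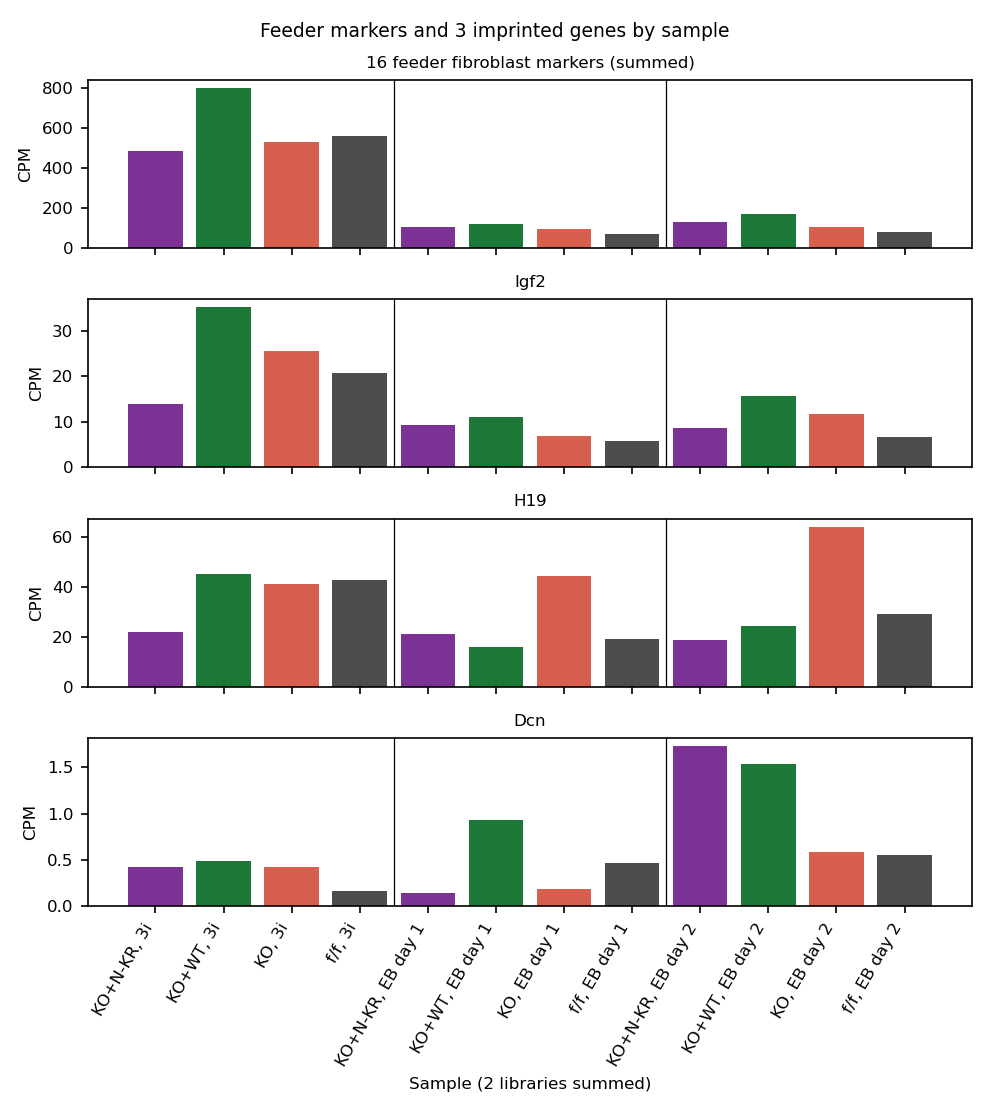
Summed CPM of 16 feeder fibroblast markers and CPM of Igf2, H19 and Dcn in each of the 12 samples (bars: 1 sample each, coloured by genotype). Feeder markers are highest at 3i and within each state in KO+WT, as is Igf2, while H19 is highest in KO at day 1 and day 2, and Dcn is highest at day 2.

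At the Kcnq1 locus, Cdkn1c, Phlda2, Ascl2 and Kcnq1ot1 rose at day 1 and Slc22a18 fell. Cdkn1c, the maternally expressed cyclin-dependent kinase inhibitor gene, stood at 6.34, 16.9 and 20.6 CPM in KO+N-KR, 8.57, 25.5 and 26.99 in KO+WT, 6.68, 11.2 and 30.05 in KO, and 8.16, 23.8 and 24.0 in f/f in the order 3i, day 1, day 2. It was higher on both days (1.36 ± 0.18 and 1.79 ± 0.18). Phlda2, which limits growth of the placenta, was higher by 0.62 ± 0.13 and 1.12 ± 0.13, and ranged from 14.5 CPM (KO+N-KR at 3i) to 50.1 CPM (KO at day 2). Ascl2, a transcription factor gene of trophoblast, was higher at day 1 (0.76 ± 0.20) and not called at day 2 (0.25 ± 0.21), and ranged from 2.09 CPM (KO at 3i) to 11.5 CPM (KO+N-KR at day 1). Kcnq1ot1, the paternal noncoding RNA that silences the locus in cis, was higher by 0.72 ± 0.27 and 1.36 ± 0.26, and ranged from 2.32 CPM (KO+N-KR at 3i) to 9.49 CPM (KO+N-KR at day 2). Its day 1 call was lost without KO, under library totals alone and without replicate 2. Slc22a18, a transporter gene, was lower on both days (-0.88 ± 0.18 and -1.49 ± 0.19), and ranged from 1.48 CPM (KO+N-KR at day 2) to 6.62 CPM (KO+N-KR at 3i). Kcnq1, a potassium channel gene that Kcnq1ot1 overlaps on the other strand, had 77 reads in all: 6 to 19 per sample at 3i, 1 to 3 at day 1 and 3 to 6 at day 2. Its fitted changes (-2.65 ± 0.46 and -1.36 ± 0.38) passed the test but rest on these few reads and are no measure of the size of a change. Kcnq1 could be fitted under 6 of 12 alternatives, and its day 2 call was lost under DESeq2.

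At the Dlk1-Meg3 locus, all 5 members were higher at day 2. Meg3, a maternally expressed noncoding RNA, stood at 86.1, 84.6 and 161 CPM in KO+N-KR, 68.3, 69.45 and 160 in KO+WT, 72.65, 64.1 and 97.7 in KO, and 69.6, 65.8 and 127 in f/f in the order 3i, day 1, day 2. It was not called at day 1 (-0.07 ± 0.09) and was higher at day 2 (0.86 ± 0.09, adjusted p = 2.84e-06). Rian, a noncoding RNA downstream of Meg3, was higher on both days (0.58 ± 0.09 and 0.88 ± 0.09). Its levels were 101.5, 156 and 203.5 CPM in KO+N-KR, 89.55, 143.5 and 191 in KO+WT, 97.4, 126 and 129.8 in KO, and 81.1, 129 and 163 in f/f. Mirg, the host of a microRNA cluster, rose by 1.01 ± 0.17 and 1.29 ± 0.17 and ranged from 2.47 CPM (f/f at 3i) to 9.48 CPM (KO+WT at day 2). The paternally expressed Dlk1, a transmembrane Notch-family relative, had 0.55 at day 1 without passing the test and rose at day 2 (1.58 ± 0.23), ranging from 1.13 CPM (KO at 3i) to 6.47 CPM (KO at day 2). Rtl1, a retrotransposon-derived gene with 351 reads in all and a day 1 call lost without replicate 1, rose by 1.00 ± 0.24 and 1.60 ± 0.23 and ranged from 0.597 CPM (f/f at 3i) to 2.28 CPM (KO+WT at day 2). The KO sample was the lowest of the 4 lines at day 2 for Meg3, Rian and Mirg and the highest for Dlk1.

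Zdbf2, a zinc finger gene with a paternally expressed transcript, was higher at day 1 (1.05 ± 0.06) and, by less, at day 2 (0.16 ± 0.06), and ranged from 85.5 CPM (KO+WT at 3i) to 291 CPM (KO+N-KR at day 1). Impact, whose protein restrains the kinase GCN2, was higher at day 2 (0.56 ± 0.07) and ranged from 93.8 CPM (KO at 3i) to 243.5 CPM (KO+N-KR at day 2). At the Grb10 locus, Grb10, an adaptor that dampens insulin receptor signalling, was higher at day 2 (0.25 ± 0.10) and ranged from 80.4 CPM (f/f at day 1) to 225 CPM (KO+WT at 3i). Ddc, the gene of DOPA decarboxylase, was lower at day 2 (-1.36 ± 0.09, adjusted p = 1.94e-08). It stood at 24.4, 27.6 and 8.945 CPM in KO+N-KR, 21.4, 22.0 and 7.51 in KO+WT, 19.3, 18.7 and 7.90 in KO, and 19.1, 23.05 and 8.28 in f/f in the order 3i, day 1, day 2. Igf2r, the receptor that clears IGF2, was lower on both days (-0.77 ± 0.08 and -0.39 ± 0.08) and ranged from 97.1 CPM (f/f at day 1) to 203.5 CPM (KO+N-KR at 3i). At the Nnat locus, Nnat, a small membrane protein gene, was higher (1.06 ± 0.14 and 1.51 ± 0.14), and ranged from 2.05 CPM (KO+WT at 3i) to 12.2 CPM (KO at day 2). Blcap, the host of Nnat, was lower at day 2 (-0.26 ± 0.09) and ranged from 13.0 CPM (KO at day 2) to 21.9 CPM (KO+N-KR at day 1). The day 2 calls of Zdbf2 and Blcap were lost without KO or without f/f, and that of Grb10 without KO+N-KR, without KO and without f/f. These calls were also lost with the compared states fitted alone and without replicate 1. Those of Zdbf2 and Grb10 were lost under library totals alone as well, and that of Zdbf2 with no filter on low counts.

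At the H13 locus, Mcts2, a retrogene inside an intron of H13, was higher at day 1 (0.80 ± 0.11) and day 2 (0.39 ± 0.11), and ranged from 11.8 CPM (KO at 3i) to 28.1 CPM (KO+N-KR at day 1). H13, a signal peptide peptidase gene, was higher at day 2 (0.31 ± 0.07) and ranged from 14.4 CPM (KO+WT at day 1) to 28.5 CPM (KO at day 2). Gnas, the gene of the stimulatory G protein alpha subunit, was lower at day 1 (-0.26 ± 0.05) and higher at day 2 (0.27 ± 0.04), and ranged from 192 CPM (KO at day 1) to 311 CPM (KO+WT at day 2). Trappc9, a vesicle trafficking gene, was lower on both days (-0.39 ± 0.07 and -0.47 ± 0.07), and ranged from 25.9 CPM (KO at day 2) to 42.4 CPM (KO+N-KR at 3i). Inpp5f, a phosphoinositide phosphatase gene, was higher on both (0.23 ± 0.09 and 0.66 ± 0.09), and ranged from 18.9 CPM (f/f at 3i) to 43.7 CPM (KO+N-KR at day 2). At the Commd1 locus, Commd1, a gene of copper handling, was lower on both days (-0.17 ± 0.06 and -0.28 ± 0.06), ranging from 34.3 CPM (KO+WT at day 2) to 52.1 CPM (f/f at 3i). Zrsr1, a retrogene inside an intron of Commd1, was lower at day 2 (-0.31 ± 0.10), ranging from 14.5 CPM (KO+WT at day 2) to 25.1 CPM (f/f at day 1). Dcn, the gene of the proteoglycan decorin that fibroblasts make, had 166 reads in all and was higher at day 2 (1.49 ± 0.43, adjusted p = 0.00807). It stood at 0.4255, 0.146 and 1.73 CPM in KO+N-KR, 0.485, 0.927 and 1.53 in KO+WT, 0.418, 0.188 and 0.5805 in KO, and 0.159, 0.463 and 0.552 in f/f in the order 3i, day 1, day 2. The feeder marker sum was highest at 3i in every line. Of 15 tested feeder markers, 9 fell at day 2 and 3 rose (Mgp, Thy1 and Cnn1). Both Dcn and that sum were highest in KO+WT at 3i and at day 1. The part of feeder RNA in the Dcn level was not tested. The day 1 call of Commd1 was lost without KO+WT or without replicate 1. That of Inpp5f was lost without KO+N-KR, KO+WT or f/f, under library totals alone, with no filter on low counts and without either replicate. The day 2 call of Mcts2 was lost without KO+N-KR or KO+WT, and that of Zrsr1 without KO+N-KR, KO+WT or KO.

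The 5 genotype comparisons ask which imprinted genes differ once Eed is deleted and once wild-type or N-KR EED is put back. Of the 42 tested members, 21 were called in at least 1 of them and 21 in none. The matching share of all genes was not computed, so this count is no result particular to the members. Single comparisons called from 0.552% to 15.8% of all genes. Those with no call were Cdkn1c, Kcnq1ot1, Kcnq1, Slc22a18, Zim1, Peg10, Sgce, Ppp1r9a, Ndn, Magel2, Mkrn3, Ube3a, Dlk1, Mirg, Rtl1, Gnas, Blcap, Trappc9, Dcn, Inpp5f and Zrsr1. Some of these passed under an alternative. Peg10 was lower in KO+WT than in KO under library totals alone (-0.33), DESeq2 (-0.29) and no filter on low counts (-0.31). Sgce was lower in KO+WT than in f/f under DESeq2 (-0.64), and Mkrn3 in KO than in f/f with no filter (-0.62). Cdkn1c, Magel2, Mirg, Gnas, Blcap, Trappc9, Dcn and Zrsr1 also passed in some alternative. Ube3a, Zim1 and Ppp1r9a passed only with the 24 libraries fitted as separate samples, which adds no biological replicate. Comparisons with KO share the KO samples, and those with f/f share the f/f samples, so they are not independent of each other.

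**Figure D4:**
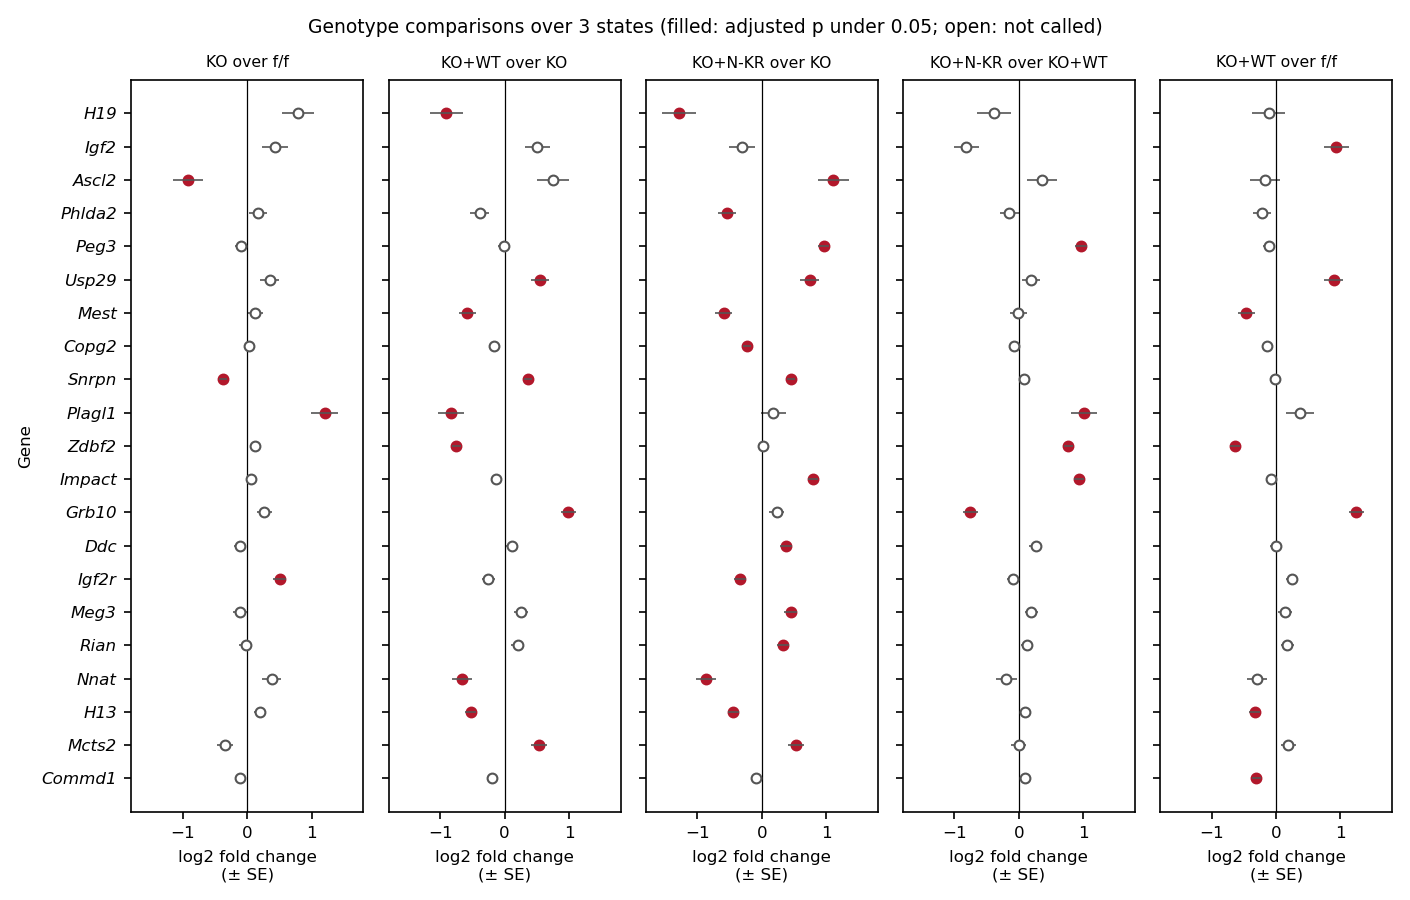
Log2 fold change ± SE over 3 states of the 21 imprinted genes called in at least 1 of the 5 genotype comparisons (panels; rows: genes; filled points: adjusted p under 0.05). Peg3 and Impact lie near 1 in both panels with KO+N-KR on top, Grb10 lies near 1 in both panels with KO+WT on top, and H19 lies at -1.29 in KO+N-KR over KO and -0.90 in KO+WT over KO.

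**Figure D5:**
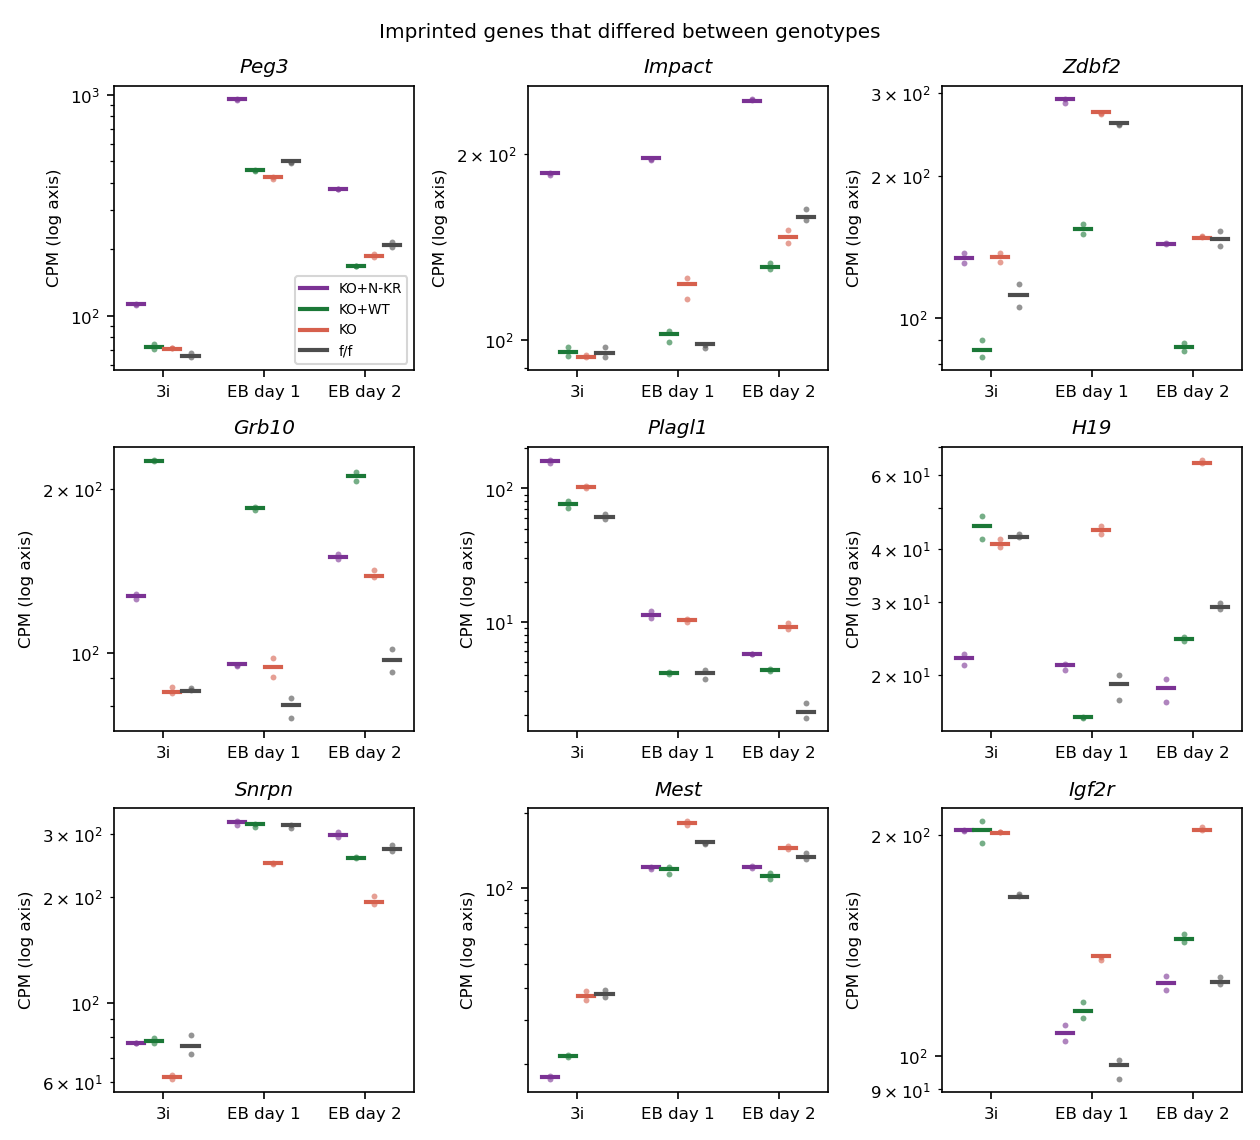
Level of 9 imprinted genes in each line at 3i, day 1 and day 2 (log axis; short lines: 1 sample of 2 summed libraries; points: the 2 libraries). KO+N-KR is the highest line for Peg3 and Impact in every state, KO+WT is the highest for Grb10 and the lowest for Zdbf2 in every state, and KO is the highest for H19 at day 1 and day 2.

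In KO against f/f, 4 of 42 members were called (8.77% of all genes), 2 higher (4.45% of all genes) and 2 lower (4.32%). That share is near the background. With scaling by library totals alone, 1073 genes passed as higher and 323 as lower, against 678 higher and 657 lower with TMM scaling, and the members stayed at 2 and 2. Plagl1 stood at 102, 10.2 and 9.15 CPM in KO against 61.4, 4.12 and 2.12 in f/f in the order 3i, day 1, day 2, higher in KO in every state (1.20 ± 0.21, adjusted p = 0.0104). Igf2r stood at 201, 137 and 203 CPM in KO against 165, 97.1 and 126 in f/f, also higher in KO in every state (0.50 ± 0.10, adjusted p = 0.0128). Ascl2 was lower in KO (-0.92 ± 0.24, adjusted p = 0.0354), with 2.09, 4.27 and 5.05 CPM in KO against 6.65, 10.2 and 4.78 in f/f, so that the difference held at 3i and day 1 and not at day 2. Snrpn was lower in every state (-0.38 ± 0.06, adjusted p = 0.0071), with 61.7, 249.6 and 193 CPM in KO against 75.5, 318 and 273 in f/f. All 4 calls were lost without day 1, where edgeR called none of the members or of 15111 genes (6 members and 2272 genes at an unadjusted p under 0.05) and DESeq2 called no member and 122 genes. Without 3i, 7 of 41 members were called (9.18% of all genes in that fit), among them H19 (log2 change 1.18, adjusted p = 0.000249). The Ascl2 call was lost there, as it was with KO and f/f fitted alone and without replicate 2.

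H19 did not pass over the 3 states of KO against f/f (0.79 ± 0.25, adjusted p = 0.0678). It stood at 41.1, 44.5 and 64.25 CPM in KO against 42.8, 19.1 and 29.2 in f/f in the order 3i, day 1, day 2, so the lines were near each other at 3i and KO was higher in embryoid bodies. Besides the fit without 3i, H19 passed with no filter on low counts (adjusted p = 0.0338) and without replicate 1 (adjusted p = 0.0459). Within single states, 1 of 31 members differed by size at 3i (Ascl2; 0.507% of all such genes), 4 of 35 at day 1 (Plagl1 and H19 higher, Ascl2 and Cdkn1c lower; 0.546%) and 2 of 35 at day 2 (Plagl1 and H19, both higher; 1.97%). Cdkn1c at day 1 was 11.2 CPM in KO against 23.8 in f/f. Grb10 (0.26 ± 0.12), Cdkn1c (-0.28 ± 0.20), Kcnq1ot1 (-0.11 ± 0.29), Meg3 (-0.11 ± 0.11) and Dlk1 (0.33 ± 0.27) did not pass over the 3 states. Beside these values, 3 of 12 extraembryonic endoderm markers and 1 of 7 trophoblast markers were called higher in KO and none lower, and no feeder marker was called. The endoderm sum was 472, 376 and 526 CPM in KO against 406.5, 293 and 424 in f/f, and the trophoblast sum 240.5, 116.5 and 309 CPM in KO against 173, 80.3 and 162 in f/f. Of 8 formative epiblast markers, 2 (Lef1 and Pou3f1) were lower, with sums of 145, 1673 and 952 CPM in KO against 144.5, 1872 and 1926 in f/f, and of 11 naive markers, 2 (Klf4 and Prdm14) were higher. Their part in the results was not tested.

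In KO+WT against KO, 10 of 42 members were called (15.8% of all genes), 4 higher (7.1%) and 6 lower (8.73%). Grb10 was higher (0.99 ± 0.12, adjusted p = 0.000186), with 225, 185 and 211 CPM in KO+WT against 85.0, 94.1 and 139 in KO in the order 3i, day 1, day 2, and the KO+WT samples lay above all KO samples. Zdbf2 was lower (-0.75 ± 0.07, adjusted p = 4.15e-05), with 85.5, 154 and 86.6 CPM in KO+WT against 134, 272.5 and 148 in KO, and lower in every state. Plagl1 was lower (-0.83 ± 0.21, adjusted p = 0.0164), with 76.35, 4.10 and 4.33 CPM in KO+WT against 102, 10.2 and 9.15 in KO. H19 was lower over the 3 states (-0.90 ± 0.26, adjusted p = 0.0304), with 45.4, 15.9 and 24.4 CPM in KO+WT against 41.1, 44.5 and 64.25 in KO, and was not lower at 3i. Its call was lost under DESeq2, without day 1, without day 2 and with these lines fitted alone. Mest (-0.58 ± 0.13), Nnat (-0.67 ± 0.15) and H13 (-0.53 ± 0.09) were also lower, and Usp29 (0.55 ± 0.15), Mcts2 (0.54 ± 0.12) and Snrpn (0.37 ± 0.06) higher, each in the same direction in all 3 states. Mcts2 stood at 14.9, 26.4 and 21.6 CPM in KO+WT against 11.8, 18.65 and 12.7 in KO, and its host H13 at 17.1, 14.4 and 20.8 CPM in KO+WT against 23.1, 23.4 and 28.5 in KO. Reads in the overlap of Mcts2 and H13 cannot be told apart.

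Without 3i, 19 of 41 members were called between KO+WT and KO (19.2% of all genes in that fit). Of the 10 calls over all states, those of Grb10 and Zdbf2 alone held without day 1, and those of H19, Mcts2, Nnat and Usp29 were also lost without day 2. By size, 1 of 31 members was called at 3i (Grb10; 0.742% of all such genes), 3 of 34 at day 1 (Cdkn1c higher, Plagl1 and H19 lower; 1.69%) and 2 of 35 at day 2 (Plagl1 and H19; 2.62%). In the same comparison 9 of 15 feeder markers were called higher, with summed levels of 802, 119.7 and 172 CPM in KO+WT against 530.1, 94.3 and 107 in KO. Of 12 extraembryonic endoderm markers, 7 were called lower, with 442, 291 and 407.5 CPM in KO+WT against 472, 376 and 526 in KO, and of 7 trophoblast markers 2 were lower. Of 8 formative epiblast markers, 6 were higher, with sums of 173, 2549 and 2281 CPM in KO+WT against 145, 1673 and 952 in KO, and of 11 naive markers 2 were lower. The part of these cell types in the imprinted genes' differences was not tested.

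In KO+N-KR against KO, 16 of 42 members were called (15.4% of all genes), 9 higher (6.77%) and 7 lower (8.67%). Peg3 stood at 113, 957 and 374 CPM in KO+N-KR against 71.2, 424 and 186 in KO in the order 3i, day 1, day 2 and was higher in every state (0.96 ± 0.09, adjusted p = 3.3e-05). Impact stood at 186, 197 and 243.5 CPM in KO+N-KR against 93.8, 123 and 146.5 in KO and was also higher in every state (0.80 ± 0.08, adjusted p = 7.64e-05), with the lowest KO+N-KR sample above the highest KO sample. Usp29, which shares a promoter region with Peg3, was higher by 0.74 ± 0.14, with 6.15, 11.7 and 16.1 CPM in KO+N-KR against 5.055, 6.29 and 8.08 in KO. Ascl2 was higher (1.11 ± 0.24, adjusted p = 0.00772), with 6.525, 11.5 and 6.82 CPM in KO+N-KR against 2.09, 4.27 and 5.05 in KO, a difference that was small at day 2. Snrpn (0.45 ± 0.06), Mcts2 (0.53 ± 0.12), Meg3 (0.45 ± 0.11), Ddc (0.37 ± 0.10) and Rian (0.33 ± 0.10) were higher by less.

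H19 was lower in every state (-1.29 ± 0.26, adjusted p = 0.00561), with 22.0, 21.15 and 18.6 CPM in KO+N-KR against 41.1, 44.5 and 64.25 in KO, and all KO+N-KR samples lay below all KO samples. Nnat (-0.86 ± 0.16), Mest (-0.59 ± 0.13), Phlda2 (-0.54 ± 0.14), H13 (-0.44 ± 0.09), Igf2r (-0.34 ± 0.09) and Copg2 (-0.23 ± 0.06) were lower. At 3i Igf2r was 203.5 CPM in KO+N-KR against 201 in KO, and its call was lost without day 1, without day 2 and with the lines fitted alone. Calls that held without day 1 were those of Peg3, Impact, Snrpn, H19 and Nnat, and those of H19, Nnat, Usp29, Mcts2, Rian and Copg2 were lost without day 2. By size, 2 of 32 members were called at 3i (Ascl2 higher, Mest lower; 0.984% of all such genes), 4 of 33 at day 1 (Peg3 and Ascl2 higher, H19 and Kcnq1ot1 lower; 1.47%) and 3 of 36 at day 2 (Peg3 higher, H19 and Nnat lower; 3.29%). Kcnq1ot1 at day 1 was 3.25 CPM in KO+N-KR against 7.05 in KO. In this comparison 5 of 12 extraembryonic endoderm markers were higher and none lower, and 1 of 15 feeder markers was lower and none higher. The endoderm sum was 618, 515 and 635 CPM in KO+N-KR against 472, 376 and 526 in KO, and the trophoblast sum, with 1 of 7 markers called lower, 194, 92.6 and 182 CPM in KO+N-KR against 240.5, 116.5 and 309 in KO. Of 8 formative epiblast markers, 4 were higher, with sums of 133, 2007 and 2541 CPM in KO+N-KR against 145, 1673 and 952 in KO, and of 11 naive markers 1 was higher and 3 lower. Their part in these differences was not tested.

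KO+N-KR and KO+WT differed at few genes, 0.552% of those tested, and 5 of the 42 members were among them, 4 higher (0.296% of all genes) and 1 lower (0.256%). Impact was higher in KO+N-KR (0.93 ± 0.08, adjusted p = 5.83e-05), with 186, 197 and 243.5 CPM in KO+N-KR against 95.6, 102 and 131 in KO+WT in the order 3i, day 1, day 2. Peg3 was higher (0.97 ± 0.09, adjusted p = 9.05e-05), with 113, 957 and 374 CPM in KO+N-KR against 72.3, 455 and 168.5 in KO+WT. Zdbf2 was higher (0.77 ± 0.07, adjusted p = 0.000102), with 134, 291 and 143 CPM in KO+N-KR against 85.5, 154 and 86.6 in KO+WT. Plagl1 was higher (1.01 ± 0.20, adjusted p = 0.0439), with 160.4, 11.3 and 5.73 CPM in KO+N-KR against 76.35, 4.10 and 4.33 in KO+WT, a call lost under library totals alone, under DESeq2, without 3i and without day 1. Grb10 was lower (-0.76 ± 0.11, adjusted p = 0.0052), with 127, 95.5 and 149.8 CPM in KO+N-KR against 225, 185 and 211 in KO+WT, and its call was lost without day 1. Each of the 5 differed in the same direction in all 3 states. DESeq2 called 3 members higher and 2 lower (0.874% of all genes, 64 higher and 69 lower), and the fit with no filter on low counts 4 higher and 2 lower (0.604%). The member added in both was Igf2, lower in KO+N-KR (adjusted p = 0.0196 with DESeq2 and 0.0419 with no filter), which also passed with the 2 lines fitted alone (adjusted p = 0.0144).

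Set against the other lines, these 5 differences did not all lie with KO+N-KR. Peg3 and Impact were higher in KO+N-KR than in KO as well, while KO+WT did not differ from KO beyond the threshold in Peg3 (-0.01 ± 0.09, adjusted p = 0.968) or Impact (-0.14 ± 0.08, adjusted p = 0.287). Zdbf2 and Grb10 were called between KO+WT and KO, while KO+N-KR did not pass against KO in Zdbf2 (0.01 ± 0.07, adjusted p = 0.908) or Grb10 (0.23 ± 0.12, adjusted p = 0.192). Usp29, the divergent neighbour of Peg3, did not pass between the rescue lines (0.19 ± 0.14, adjusted p = 0.868), nor did Zim1 (-0.33 ± 0.37) or Ddc, the neighbour of Grb10 (0.26 ± 0.10). Igf2 stood at 14.0, 9.36 and 8.70 CPM in KO+N-KR against 35.2, 11.1 and 15.6 in KO+WT and did not pass (-0.81 ± 0.20, adjusted p = 0.13). By size, 3 of 32 members were called at 3i (Plagl1 higher, H19 and Igf2 lower; 0.497% of all such genes), 2 of 33 at day 1 (Plagl1 and Peg3; 0.426%) and 1 of 35 at day 2 (Peg3; 0.241%). Of 12 extraembryonic endoderm markers, 6 were higher in KO+N-KR, with 618, 515 and 635 CPM in KO+N-KR against 442, 291 and 407.5 in KO+WT, and of 15 feeder markers 1 was lower and none higher, with 487, 105 and 132 CPM in KO+N-KR against 802, 119.7 and 172 in KO+WT. The part of either in these differences, that of feeder RNA in H19 and Igf2 included, was not tested. Eed RNA was also lower in KO+N-KR than in KO+WT in every state, as given above. Each line is a single sample in each state. A difference between the 2 EED forms, one in Eed level and one between the lines that carry them therefore cannot be told apart.

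In KO+WT against f/f, 7 of 42 members were called (8.82% of all genes), 3 higher (3.65%) and 4 lower (5.17%). None of the 7 was called between KO and f/f, where only 8.77% of all genes were. The overlap of these calls over all genes was not computed. Grb10 was higher (1.25 ± 0.12, adjusted p = 4.17e-05), with 225, 185 and 211 CPM in KO+WT against 85.25, 80.4 and 97.05 in f/f in the order 3i, day 1, day 2, more than 2-fold in every state. Igf2 was higher (0.94 ± 0.20, adjusted p = 0.0102), with 35.2, 11.1 and 15.6 CPM in KO+WT against 20.8, 5.71 and 6.715 in f/f, and its call was lost without day 1 or without day 2. Feeder markers, which include no imprinted member, moved the same way, with 9 of 15 called higher. Their sums were 802, 119.7 and 172 CPM in KO+WT against 559, 68.4 and 80.35 in f/f, and their part in the Igf2 level was not tested. Of 8 formative epiblast markers, 4 were higher and none lower, and none of 7 trophoblast markers was called. Of 12 extraembryonic endoderm markers, 1 was higher and 3 lower, and of 11 naive markers 1 was higher and 1 lower. The part of these cell types in the members' differences was not tested. Usp29 was higher (0.89 ± 0.15, adjusted p = 0.00214), with 6.035, 10.3 and 12.8 CPM in KO+WT against 2.91, 5.20 and 7.91 in f/f. Zdbf2 was lower (-0.64 ± 0.07, adjusted p = 0.000152), with 85.5, 154 and 86.6 CPM in KO+WT against 112, 259 and 147 in f/f. Mest (-0.46 ± 0.13), H13 (-0.33 ± 0.09) and Commd1 (-0.31 ± 0.07) were lower in every state. Without day 1 the calls of Usp29, Mest, H13 and Commd1 were lost, and without day 2 that of H13. Under library totals alone those of Mest and H13 were lost, leaving 3 members higher and 2 lower, beside 764 genes higher and 635 lower (556 and 787 with TMM scaling). By size, 2 of 32 members were called at 3i (Grb10 and Usp29 higher; 1.18% of all such genes), 2 of 34 at day 1 (Grb10 higher, Sgce lower; 1.05%) and 2 of 33 at day 2 (Grb10 and Igf2 higher; 0.453%).

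Members called in KO against f/f were then followed into the rescue lines, side by side and with shared samples. Plagl1, higher in KO, was called lower in KO+WT than in KO and did not pass between KO+WT and f/f (0.37 ± 0.22) or in KO+N-KR over KO (0.18 ± 0.20, adjusted p = 0.586). Snrpn, lower in KO, was called higher in both rescue lines than in KO and was -0.01 ± 0.06 in KO+WT over f/f. Ascl2, lower in KO, was called higher in KO+N-KR than in KO and did not pass in KO+WT over KO (0.75 ± 0.24, adjusted p = 0.0501). The latter difference passed under DESeq2 (adjusted p = 0.0196), with no filter on low counts (adjusted p = 0.0313), without day 2 and without replicate 1. Between the rescue lines Ascl2 did not pass (0.36 ± 0.23, adjusted p = 0.822). Igf2r, higher in KO, was called lower in KO+N-KR than in KO and did not pass in KO+WT over KO (-0.25 ± 0.09, adjusted p = 0.0888). Without 3i, Igf2r did pass in KO+WT over KO (log2 change -0.38), and the rescue lines did not differ beyond the threshold over the 3 states (-0.09 ± 0.09). Other members differed between the rescue lines and KO with no call between KO and f/f, where only 8.77% of all genes were called. Among them were Peg3, Impact, Grb10, Zdbf2, Usp29, Mest, Nnat, H13 and Mcts2.

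The 2 untested members were close to the limit of detection, at which 3 counts make 0.118 to 0.162 CPM. Airn, the paternal antisense RNA that silences Igf2r, had 25 reads in the 12 samples, with 7, 2, 5 and 1 at 3i in KO+N-KR, KO+WT, KO and f/f and at most 4 in any later sample. Rasgrf1, a guanine nucleotide exchange factor gene, had 9 reads, all of them at day 2 (4 in KO+N-KR, 1 in KO+WT and 4 in KO). Because libraries were selected for poly(A) RNA, noncoding RNAs of these loci that lack a poly(A) tail would be measured poorly.

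The factors that hold or set imprints were read beside the members, as 16 genes. Among these, Dnmt3a and Dnmt3b are also formative epiblast markers here, and Zfp42 and Dppa3 are also naive markers. Between 3i and day 1, 9 were called higher and 2 lower (32.4% and 33.2% of all genes). By day 2, 8 were higher and 6 lower (33% and 30.5% of all genes). The de novo DNA methyltransferase genes rose most of the list, Dnmt3a by 4.12 ± 0.17 at day 1 and 3.67 ± 0.17 at day 2, and Dnmt3b by 3.55 ± 0.21 and 3.68 ± 0.21. Zfp57 was higher at day 1 (0.70 ± 0.12) and lower at day 2 (-1.44 ± 0.12), with 252, 487.5 and 118 CPM in KO+N-KR, 307.5, 385 and 92.65 in KO+WT, 209.9, 329.5 and 56.35 in KO, and 215, 407 and 104.5 in f/f. Dnmt1 (-0.43 ± 0.04) and its partner Uhrf1 (-0.44 ± 0.05) were lower at day 2. Also called at day 1 were Dnmt3l (2.28 ± 0.10), Ctcfl (1.04 ± 0.36), Trim28 (0.74 ± 0.05), Tet1 (0.48 ± 0.06), Tet3 (0.45 ± 0.10), Ctcf (0.44 ± 0.05), Zfp42 (-0.45 ± 0.10) and Dppa3 (-1.25 ± 0.18). Also called at day 2 were Ctcfl (1.39 ± 0.34), Dnmt3l (1.17 ± 0.10), Tet3 (0.50 ± 0.10), Smchd1 (0.45 ± 0.05), Ctcf (0.29 ± 0.05), Trim28 (0.16 ± 0.04), Tet1 (-0.45 ± 0.06), Zfp42 (-0.99 ± 0.10) and Tet2 (-1.04 ± 0.17). None of the 16 was called in KO against f/f, where the largest differences were in Ctcfl (0.66 ± 0.37), Dppa3 (0.55 ± 0.19) and Zfp57 (-0.39 ± 0.14). Nor was any called in KO+N-KR against KO+WT, where the largest were in Ctcfl (-0.73 ± 0.39), Dppa3 (-0.48 ± 0.20) and Dnmt3a (-0.16 ± 0.18). Zfp57 was higher than in KO in both rescue lines, by 0.61 ± 0.14 in KO+N-KR and 0.48 ± 0.14 in KO+WT. In all, 5 of the 16 were higher and 4 lower in KO+N-KR than in KO, the others being Dnmt3b (0.72 ± 0.23), Dnmt3l (0.38 ± 0.12), Zfp445 (0.27 ± 0.06), Trim28 (0.18 ± 0.05), Ctcf (-0.18 ± 0.06), Smchd1 (-0.25 ± 0.05), Zfp42 (-0.36 ± 0.11) and Dppa3 (-0.79 ± 0.19), while Ctcfl did not pass (-0.85 ± 0.38). In KO+WT, 4 were higher and 2 lower than in KO, the others being Dnmt3b (0.85 ± 0.22), Zfp445 (0.21 ± 0.06), Trim28 (0.19 ± 0.05), Smchd1 (-0.20 ± 0.05) and Zfp42 (-0.44 ± 0.11). Against f/f, KO+WT had 1 higher and 2 lower, which were Zfp445 (0.25 ± 0.06), Ctcf (-0.19 ± 0.06) and Zfp42 (-0.49 ± 0.11), while Ctcfl (0.54 ± 0.38) and Dnmt3b (0.47 ± 0.22) did not pass.

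Of 37 other imprinted genes or neighbours outside the 44, 34 were in the table and 27 were tested. Dio3, the deiodinase gene at the far end of the Dlk1-Meg3 locus, was lower in embryoid bodies (-2.56 ± 0.24 at day 1 and -2.48 ± 0.23 at day 2), as was Qpct (-2.27 ± 0.15 and -2.99 ± 0.17). Calcr, the calcitonin receptor gene, was higher (1.87 ± 0.43 and 3.55 ± 0.36). In these state comparisons 6 were higher and 11 lower at day 1 (32.4% and 33.2% of all genes). At day 2, 11 were higher and 11 lower (33% and 30.5% of all genes). Also called at day 1 were Nap1l5 (1.56 ± 0.33), Nespas (0.95 ± 0.16), Atp10a (0.94 ± 0.12), Gab1 (0.48 ± 0.05), Nap1l4 (0.19 ± 0.04), Dhcr7 (-0.25 ± 0.09), Cobl (-0.32 ± 0.10), Smoc1 (-0.34 ± 0.07), Slc38a4 (-0.64 ± 0.09), Cd81 (-0.80 ± 0.05), Osbpl5 (-0.87 ± 0.19), Pon3 (-0.88 ± 0.21), Gatm (-0.96 ± 0.31) and Peg12 (-1.75 ± 0.18). Also called at day 2 were Nap1l5 (2.21 ± 0.31), Atp10a (2.21 ± 0.12), Gatm (1.55 ± 0.25), Nespas (1.29 ± 0.16), Ano1 (1.20 ± 0.33), Zim3 (1.05 ± 0.15), Asb4 (0.97 ± 0.30), Pon2 (0.75 ± 0.19), Zfat (0.37 ± 0.10) and Dhcr7 (0.34 ± 0.08), all higher. Those lower at day 2 were Smoc1 (-0.27 ± 0.07), Tssc4 (-0.32 ± 0.08), Peg13 (-0.55 ± 0.15), Slc38a4 (-0.71 ± 0.09), Pon3 (-0.74 ± 0.21), Cd81 (-0.86 ± 0.05), Peg12 (-1.10 ± 0.17), Tspan32 (-1.73 ± 0.26) and Cobl (-1.86 ± 0.11). Sfmbt2, which is imprinted through histone H3 methylation in mouse extraembryonic tissue, was the largest difference in KO over f/f (1.86 ± 0.29), where Smoc1 was the only other gene of the list called (0.30 ± 0.09), and Calcr (0.80 ± 0.38) and Pon3 (0.78 ± 0.24) did not pass. Its levels were 35.5, 52.6 and 98.1 CPM in KO against 20.1, 15.85 and 14.6 in f/f in the order 3i, day 1, day 2. Sfmbt2 was lower than in KO in KO+N-KR (-1.99 ± 0.30) and in KO+WT (-1.97 ± 0.30). Dio3 was higher in both rescue lines than in KO (1.67 ± 0.29 in KO+N-KR and 1.93 ± 0.28 in KO+WT) and in KO+WT than in f/f (1.99 ± 0.29). Its levels were 5.15, 0.679 and 1.09 CPM in KO+N-KR, 6.90, 1.07 and 0.826 in KO+WT, 1.46, 0.376 and 0.268 in KO, and 1.39, 0.257 and 0.368 in f/f. Zim3, a zinc finger gene next to Usp29, was higher than in KO in both rescue lines (0.69 ± 0.17 in KO+N-KR and 0.68 ± 0.17 in KO+WT). Zim3 stood at 4.16, 5.19 and 10.5 CPM in KO+N-KR, 4.53, 6.44 and 8.14 in KO+WT, 3.30, 3.19 and 5.40 in KO, and 1.95, 2.68 and 4.875 in f/f. Smoc1 was the only one of the 27 called between the rescue lines, lower in KO+N-KR than in KO+WT (-0.55 ± 0.09), while Atp10a (-0.48 ± 0.14) and Nap1l5 (0.34 ± 0.36) did not pass. Over the 27, 4 were higher and 5 lower in KO+N-KR than in KO, the others being Tspan32 (0.93 ± 0.29), Cd81 (0.22 ± 0.05), Dhcr7 (-0.32 ± 0.10), Gab1 (-0.43 ± 0.06), Atp10a (-0.70 ± 0.14) and Smoc1 (-0.73 ± 0.09). In KO+WT, 2 were higher and 3 lower than in KO, the others being Gab1 (-0.51 ± 0.06) and Slc38a4 (-0.34 ± 0.11), and Nap1l5 did not pass (-0.90 ± 0.34). Against f/f, KO+WT had 2 higher and 2 lower, the others being Zim3 (1.05 ± 0.17), Gab1 (-0.52 ± 0.06) and Dhcr7 (-0.41 ± 0.10), and Asb4 did not pass (0.99 ± 0.38).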

How the data were processed

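Poly(A) RNA libraries (24, or 2 for each of 12 groups) were made with the NEBNext Ultra II RNA kit, per the labels' protocols. The deposited table holds raw read counts per gene symbol in 30 columns, of which 6 match no sample used here and were not used. Per the submitters' processing notes, mm9 was the build, with STAR 2.5.2b and DESeq2 named as tools. How reads were counted, with which annotation and strand setting, is not given in the sources used here. Overlapping pairs (Kcnq1 and Kcnq1ot1, Igf2r and Airn, Mest and Copg2, Nnat and Blcap, H13 and Mcts2, Commd1 and Zrsr1) cannot be told apart where they overlap.

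Groups came from the sample titles, since the genotype labels do not tell the rescue lines from KO. Nothing in the labels says that the 2 libraries of a group came from separate cultures, and their counts differed by little more than sampling noise (genes with at least 20 reads per pair), so they were summed. The 12 sums were fitted as genotype plus state with edgeR 4.0.16 in R 4.3.3 (TMM, filterByExpr, quasi-likelihood F test, 6 residual degrees of freedom, common coefficient of variation 7.971%). SE is the size of the log2 change divided by the square root of F. Log2 ratios within a state used a prior count of 2. DESeq2 1.42.0 was an alternative. The procedure was tested on data simulated from its own model, with a KO change that was equal in every state. Such data cannot show how it handles differences that vary by state or between independent lines.

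The members, the other gene lists and the comparisons were chosen with earlier results of these data known. Every tested member is given with its levels or range, and every called member with its fold change. Of the other imprinted genes and imprint factors, those called and the 3 largest in each comparison are named. No replicate number pairs samples here, because the libraries of a group were summed.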

Additional observations from a re-analysis of the deposited data

Results flagged for a closer look

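Among members whose higher sample reached 5 CPM, H19 and Plagl1 moved in opposite directions by at least 1.5-fold under the same contrast, a threshold chosen after the values were seen. H19 at day 2 over 3i had a log2 ratio of -0.892 in KO+WT and 0.643 in KO. Plagl1 in KO+N-KR over KO had a log2 ratio of 0.655 at 3i and -0.667 at day 2. Each value rests on 1 sample a side, and the difference between the lines or states was not tested.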

How the results depend on the processing

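No called member changed direction under any alternative that could fit it. The balance of calls did change sides in some. Between KO+WT and KO, 10 members were higher and 9 lower without 3i (main 4 and 6). Between KO+N-KR and KO+WT, DESeq2 called 64 genes higher and 69 lower (main 45 and 39). Between KO+WT and f/f, library totals alone gave 764 genes higher and 635 lower (main 556 and 787). The number of members called moved with the states fitted and with the libraries treated as samples. Without day 1 the members called were 5 of 42 in KO+N-KR against KO (main 16), 3 in KO+N-KR against KO+WT (main 5), 2 in KO+WT against KO (main 10), 2 in KO+WT against f/f (main 7) and 0 in KO against f/f (main 4; 6 members at an unadjusted p under 0.05 with edgeR, 5 with DESeq2, which also called 0). Without day 2, KO+N-KR against KO had 9. Without 3i, KO against f/f had 7 and KO+WT against KO had 19. Genes called without day 1 were 328 in KO+N-KR against KO (main 2350), 30 in KO+N-KR against KO+WT (main 84), 225 in KO+WT against KO (main 2410), 175 in KO+WT against f/f (main 1343) and 0 in KO against f/f (main 1335). Without day 2 they were 1105 in KO+N-KR against KO, 1263 in KO+WT against KO and 339 in KO against f/f. With the compared lines fitted alone, 918 genes were called in KO+N-KR against KO, 210 in KO+N-KR against KO+WT and 863 in KO against f/f. Leaving out replicate 1 gave 789 genes in KO against f/f, and DESeq2 gave 133 in KO+N-KR against KO+WT. The cause was not tested.

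Treating the 24 libraries as separate samples, which adds no biological replicate, gave members and genes called of 8 and 642 in KO+N-KR against KO+WT, 24 and 5432 in KO+WT against KO, 17 and 4226 in KO+WT against f/f and 15 and 4874 in KO against f/f, and 5445 genes in KO+N-KR against KO. With the replicate number as a replicate block these were 8 and 600, 23 and 5313, 15 and 4115, 15 and 4746, and 5356, in the same order of comparisons. Of 42 genotype calls of members, 30 were lost without day 1, 13 without day 2 and 2 without 3i. Calls kept under all 11 alternatives were those of Impact and Peg3 (KO+N-KR over KO+WT and over KO), Snrpn (KO+N-KR over KO), Grb10 (KO+WT over KO and over f/f) and Zdbf2 (KO+N-KR over KO+WT, KO+WT over KO and KO+WT over f/f). Of 109 calls of members, 3 were lost under DESeq2, 8 under library totals alone and 2 with no filter on low counts. Of the 107 that could be fitted, which leaves out those of Kcnq1, 7 were lost without replicate 1 and 8 without replicate 2. Counts called by size moved under a minimum of 10 CPM in 6 of 23 cases. Depth limits Airn, Rasgrf1, Kcnq1, Zim1 and Dcn.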
